A study of Homo sapiens with 4 samples.

Results

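The genes described here code for 48 DNA repair proteins, taken from a list of repair genes ordered by pathway, and all 48 were found among the 36525 genes of the series' expression table once Ensembl identifiers were paired with current symbols. Each gene was placed in a pathway by its known function. RNA was sequenced from LM2 cells, a lung-metastatic derivative of the human breast cancer line MDA-MB-231, which is of mesenchymal type. The series compared 2 libraries from cells in which hnRNPM, a splicing regulator that binds RNA, was silenced (knockdown) with 2 libraries from control cells of the same line, all collected 48 h after plating. The labels call the silencing agent an siRNA in the treatment field and an shRNA in the growth protocol, without its sequence or the control construct, and 1 cell line stands behind all 4 libraries. The labels do not tell whether replicate libraries came from separate cultures. The p-values thus reflect the spread between these 4 samples, largely pooled over genes, and no more, and that spread may be technical.

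Cells mend different kinds of DNA damage by different routes. Homologous recombination copies an intact sister chromatid and works mainly in S and G2 phase. Classical end joining ligates broken ends directly and works through the whole cycle. The Fanconi pathway unhooks crosslinks between strands, nucleotide excision removes bulky and ultraviolet lesions, base excision removes small damaged bases, and mismatch repair corrects replication errors. Many recombination, Fanconi and mismatch genes are transcribed mainly in cells that are entering or passing through S phase.

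HNRNPM (ENSG00000099783), the targeted gene, had 88.6 and 102 RPKM in the controls and 11.5 and 13.0 RPKM after knockdown (RPKM are reads per unit of transcript length, divided by a read total). The steps between low values correspond to about 23.0 to 26.6 M reads in genes in the control libraries and 16.5 to 18.3 M in the knockdown libraries. They also point to the use of 1 read total per group, and control replicate 2 and knockdown replicate 2 had the larger RPKM sum in their group. Scaling each library by its median ratio to the others removes this difference, and values on that scale are given as a second reading. The summed level of 6 markers of the mesenchymal breast line (VIM, CD44 and others) was 1043 and 1212 RPKM in the control and 1072 and 1194 RPKM in the knockdown libraries, while 9 epithelial markers summed to 18.0 and 20.4 RPKM in the control and 26.1 and 29.1 RPKM in the knockdown libraries. Among the latter KRT8 (0.81) and KRT18 (0.84) rose and CLDN7 fell (−0.65; log2 fold changes), CDH1, the defining epithelial cadherin, was at 0.0774 and 0.0629 against 0.717 and 0.990 RPKM and below the filter for testing, and GRHL2 was listed at 0 throughout. The part of these markers in the repair genes' changes was not tested. The 4 endothelial markers summed to 0.271 to 0.440 RPKM. The 6 leukocyte markers summed to 1.29 and 1.49 RPKM in the control and 5.32 and 7.17 RPKM in the knockdown libraries, nearly all of it CD14 (1.28, 1.44, 5.27 and 7.13 RPKM), while PTPRC, the defining leukocyte marker, was at 0.0158 RPKM or less in every library.

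More of the listed repair genes fell than rose after hnRNPM knockdown, on the deposited scale in every pathway except end joining. With median-ratio scaling this was reversed in nucleotide excision (5 rose, 4 fell) and even in end joining (2 and 2). Of the 47 members with a mean of at least 1 RPKM, 22 fell, 4 rose and 21 passed in neither direction. Among all 13627 tested genes, 21.8% fell and 14.7% rose, against 46.8% and 8.51% of the tested members. The members were chosen with earlier results of these data known, so their share need not hold for repair genes at large. Of 107 other tested repair genes of the same pathways, 26.2% fell and 1.87% rose (49.5% and 15.0% with median-ratio scaling). The test was limma on log2(RPKM + 0.5), with Benjamini-Hochberg adjustment over all tested genes and a threshold of 0.05. The median log2 fold change of the members was −0.40, against −0.07 over all tested genes. With median-ratio scaling, 30 members fell (63.8%) and 9 rose (19.1%), against 29.9% and 31.1% of 13602 genes, and the medians were −0.34 and 0.00. All 26 members that passed on the deposited scale passed in the same direction with this scaling. Leaving out 1 library on this scale, RAD54L kept its call in 3 of 4 fits, MRE11 and FANCF in 2 and the others of the 26 in all 4. Of the 13 members that passed with scaling and not on the deposited scale, DDB1 kept that call in all 4 such fits, XPA in 3, BRCA2 in 2, BARD1, NBN, FANCD2, ERCC5 and LIG3 in 1, and ERCC3, ERCC4, XRCC5, ATM and ATR in 0. On the deposited scale, fewer members fell and fewer rose in each fit that left out 1 library, and the same held for all genes. The number of genes tested in these fits is not given here. They therefore do not tell whether the members' share still differed from that of all genes. With no filter on low values 0 members passed in limma. An unadjusted p below the threshold was found for 29, and the share of all genes with such a p was not counted. The members were measured at ordinary levels: the median of their control means was 5.13 RPKM, against 5.03 RPKM for all tested genes, and the fewest estimated reads behind a tested member in a library were 57.1. PMS2, which cuts the strand in mismatch repair, was not tested (0.673, 0.825, 0.574 and 0.771 RPKM), and it has near-identical pseudogene copies whose reads may not have been separable.

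**Figure D1:**
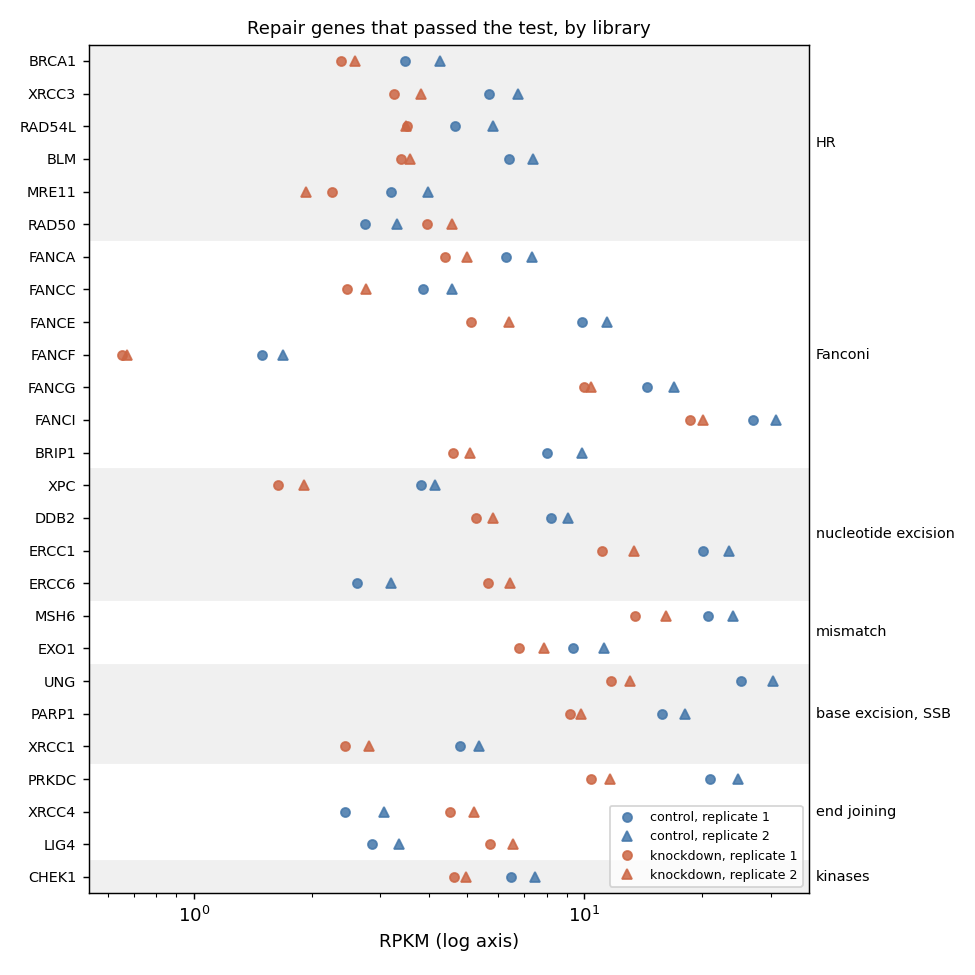
RPKM on a log axis of the 26 repair genes that passed the test, with 1 point for each of the 4 libraries and shading by pathway (HR, homologous recombination; SSB, single-strand break repair). In each of these genes both knockdown libraries lie on the same side of both control libraries. Passing the test on these same values makes that likely, and the share over all genes was not counted. It also holds for members that did not pass, such as BRCA2 and ATM. RAD50, ERCC6, XRCC4 and LIG4 are the 4 in which the knockdown libraries are higher.

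The promoters below belong to the 3 members with the lowest log2 fold change that could be printed here and to the 3 with the highest, and they are shown because these genes mark both ends of the change within repair. Each holds 250 bases before and 50 after the gene's annotated start in RefSeq (GRCh38.p14), written 5′ to 3′ on the gene's strand. Capitals mark CCAAT, the box bound by the factor NF-Y, or its complement ATTGG.
UNG, chr12:109097347-109097646, plus strand: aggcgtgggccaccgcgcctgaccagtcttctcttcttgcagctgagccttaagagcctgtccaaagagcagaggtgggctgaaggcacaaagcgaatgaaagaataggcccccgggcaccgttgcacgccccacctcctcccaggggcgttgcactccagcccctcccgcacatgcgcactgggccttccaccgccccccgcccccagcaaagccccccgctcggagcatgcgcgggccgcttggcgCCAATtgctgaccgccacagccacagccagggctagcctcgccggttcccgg
XPC, chr3:14178552-14178851, minus strand: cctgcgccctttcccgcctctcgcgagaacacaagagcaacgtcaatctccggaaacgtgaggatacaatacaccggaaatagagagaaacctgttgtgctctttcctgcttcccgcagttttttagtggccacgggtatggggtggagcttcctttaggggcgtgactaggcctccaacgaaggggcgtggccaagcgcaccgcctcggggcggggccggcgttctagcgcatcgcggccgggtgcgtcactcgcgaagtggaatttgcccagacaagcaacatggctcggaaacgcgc
BLM, chr15:90717096-90717395, plus strand: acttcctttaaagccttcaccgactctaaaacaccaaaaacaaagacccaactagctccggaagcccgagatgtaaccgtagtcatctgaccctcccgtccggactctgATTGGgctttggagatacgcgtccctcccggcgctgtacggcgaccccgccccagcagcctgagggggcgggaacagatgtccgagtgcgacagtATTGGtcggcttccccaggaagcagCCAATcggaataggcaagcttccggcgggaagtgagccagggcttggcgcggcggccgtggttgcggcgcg
ERCC6, chr10:49539072-49539371, minus strand: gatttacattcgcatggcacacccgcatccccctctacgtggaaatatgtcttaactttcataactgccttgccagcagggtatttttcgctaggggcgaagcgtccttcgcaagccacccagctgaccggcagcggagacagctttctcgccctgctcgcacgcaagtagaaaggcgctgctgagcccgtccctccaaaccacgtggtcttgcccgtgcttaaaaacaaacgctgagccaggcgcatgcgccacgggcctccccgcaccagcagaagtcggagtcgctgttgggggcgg
LIG4, chr13:108218300-108218599, minus strand: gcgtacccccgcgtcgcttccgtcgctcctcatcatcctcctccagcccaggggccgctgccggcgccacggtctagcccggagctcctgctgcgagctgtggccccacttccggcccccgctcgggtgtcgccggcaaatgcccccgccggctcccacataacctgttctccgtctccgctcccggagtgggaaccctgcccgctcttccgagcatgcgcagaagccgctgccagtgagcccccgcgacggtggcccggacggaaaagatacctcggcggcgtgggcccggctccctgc
XRCC4, chr5:83077297-83077596, plus strand: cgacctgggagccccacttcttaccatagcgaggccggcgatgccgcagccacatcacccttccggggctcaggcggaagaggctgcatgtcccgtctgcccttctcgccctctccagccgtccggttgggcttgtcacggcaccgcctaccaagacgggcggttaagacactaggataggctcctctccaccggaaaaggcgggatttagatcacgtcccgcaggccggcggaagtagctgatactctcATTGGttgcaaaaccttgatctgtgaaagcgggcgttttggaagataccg

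BLM carried 3 CCAAT matches in this window, UNG 1 and XRCC4 1, while XPC, ERCC6 and LIG4 had none. RefSeq promoters were found for 44 of the 48 members, and 3 motifs were searched on both strands, none of which contains another. CCAAT was present in 12 of 20 promoters of members that fell, 1 of 4 that rose and 4 of 19 that did not pass. It was present in 37.4% of 8019 promoters of tested genes and 35.7% of 27305 promoters in all. Promoters of S phase genes held it in 16 of 24, a larger share than in the members that fell. Among the members that fell, those with a CCAAT match were XRCC3, RAD54L, BLM, MRE11, FANCA, FANCF, BRIP1, DDB2, MSH6, UNG, XRCC1 and CHEK1. The E2F motif, searched as TTTCGCGC or TTTGGCGC, was found in 2 of the 20 (FANCC and EXO1), against 2.14% of promoters of tested genes and 11 of 24 promoters of S phase genes. TTTGAA, the element of late cell cycle genes called CHR, was found in 3 of the 20 (FANCC, BRIP1 and XRCC1), against 9.63%. The motifs were chosen after the values were seen, and a match describes letters in a window, not a bound site.

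Of the 12 homologous recombination members, 5 fell and 1 rose, and the median log2 fold change was −0.30. The steepest fall was that of BLM (ENSG00000197299), the Bloom helicase that dissolves joined DNA molecules, at 6.41 and 7.40 RPKM in the controls and 3.39 and 3.57 RPKM after knockdown. Its means were 6.91 ± 0.697 and 3.48 ± 0.130 RPKM (SD, n = 2), a log2 fold change of −0.89 ± 0.18 (SE, limma adjusted p = 3.86e-06). BRCA1, which steers breaks toward recombination, was at 3.47 and 4.27 RPKM in the control and 2.38 and 2.59 RPKM in the knockdown libraries, a log2 fold change of −0.55. RAD54L, a motor protein that acts during strand exchange, was at 4.65 and 5.82 against 3.52 and 3.49 RPKM (−0.51). XRCC3, a recombination factor, was at 5.69 and 6.77 against 3.25 and 3.82 RPKM (−0.74). In all of these genes the groups did not overlap. The same held for BRCA2, BARD1, RAD51C, XRCC2 and NBN, which did not pass on the deposited scale. The share of all genes without overlap was not counted, so this does not set these genes apart.

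BRCA2, a mediator of strand exchange, did not follow BRCA1. It was at 1.80 and 2.15 RPKM in the control and 2.32 and 2.64 RPKM in the knockdown libraries, a log2 fold change of 0.27 that did not pass on the deposited scale (adjusted p = 0.266) and passed with median-ratio scaling (0.33, adjusted p = 0.0102). PALB2, which joins BRCA1 to BRCA2, was level, with means of 4.33 ± 0.649 and 4.24 ± 0.400 RPKM (SD, n = 2) and overlapping groups. RAD51C (−0.19) and XRCC2 (−0.22), both recombination factors, passed on neither scale. BARD1, the partner of BRCA1 in a ubiquitin ligase, had a log2 fold change of −0.37, which did not pass on the deposited scale and passed with median-ratio scaling (adjusted p = 0.0257).

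The MRN complex, which senses and trims broken ends, was split. MRE11, its nuclease, fell from 3.20 and 3.97 RPKM in the control libraries to 2.26 and 1.93 RPKM in the knockdown libraries (log2 fold change −0.65). RAD50, its long coiled-coil ATPase, rose from 2.74 and 3.30 to 3.94 and 4.58 RPKM (0.44, limma adjusted p = 0.0402). NBN, the adaptor that recruits ATM, was at 10.1 and 11.5 against 8.67 and 9.70 RPKM (−0.22), which did not pass on the deposited scale and passed with median-ratio scaling. Within each library, RAD50 stood at 0.858 and 0.832 times the RPKM of MRE11 in the controls and at 1.74 and 2.38 times in the knockdown, a ratio that no scaling between libraries can change. In GENCODE 29, 79.7% of the RAD50 exon bases are also assigned to an unnamed gene on the same strand, which is not among the genes of the table.

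BLM kept its call in each of the 4 fits that left out 1 library. The call of RAD50 was lost in all 4 (adjusted p from 0.0713 to 0.454) and kept in all 4 when the libraries were also scaled. Of these fits, BRCA1 and RAD54L passed only in that without control replicate 1, XRCC3 failed without control replicate 2 or knockdown replicate 1 (adjusted p = 0.0517 and 0.119), and MRE11 failed without control replicate 2 or knockdown replicate 2 (0.0846 and 0.146). XRCC3 shares 76.7% of its exon bases with KLC1 on the opposite strand, and KLC1 rose (0.49). RAD54L shares 25.1% with LRRC41 (0.13, did not pass). Whether the counting used strand is not stated, so reads of such pairs cannot be told apart. Members of other pathways share exon bases with opposite-strand genes as well, among them LIG3 (29.1%), TP53BP1 (28.7%), ERCC4 (25.7%), MSH6 (16.2%) and FANCF (11.3%). ERCC5 shares 63.2% with a gene on the same strand. The call of KLC1 was lost in each fit that left out 1 library.

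**Figure D2:**
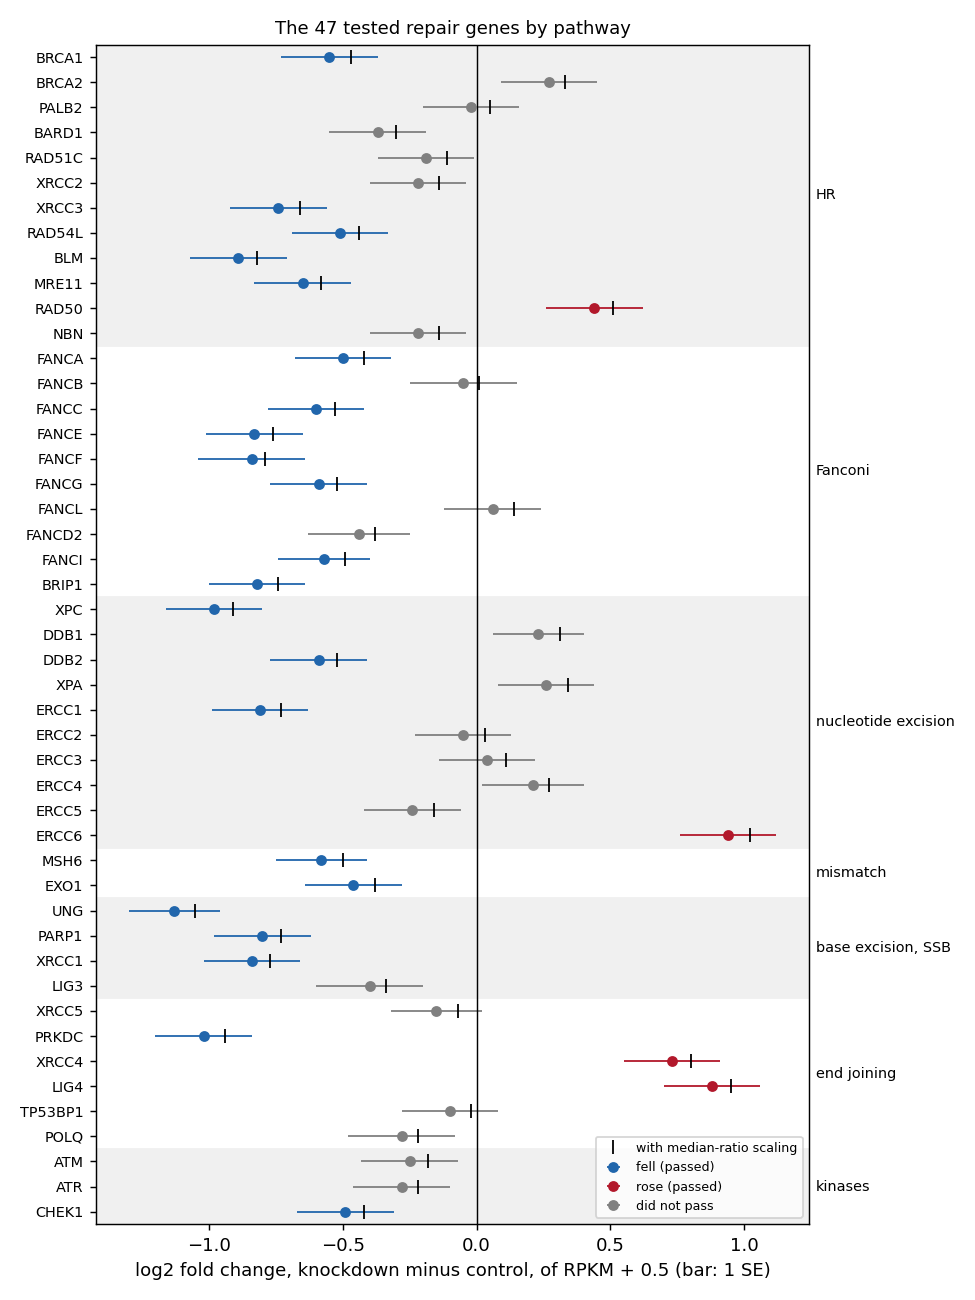
Log2 fold change, knockdown minus control, of the 47 tested repair genes on the deposited scale (points, with bars of 1 SE) and with median-ratio scaling (ticks), ordered by pathway. Values run from −1.13 (UNG) to 0.94 (ERCC6), and the ticks lie slightly to the right of the points.

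The Fanconi members had the largest share that fell among pathways with at least 10 members: of 10, 7 fell, 0 rose (also 0 at an unadjusted p below the threshold and 0 with median-ratio scaling). Their median was −0.58. The core complex, a ubiquitin ligase assembled from many subunits, was not uniform. FANCE was at 9.85 and 11.4 RPKM in the control and 5.11 and 6.40 RPKM in the knockdown libraries (−0.83 ± 0.18 SE, limma adjusted p = 1.86e-05). FANCF, an adaptor subunit encoded by a single exon, fell from 1.49 and 1.69 to 0.652 and 0.673 RPKM (−0.84), which is 2.40-fold and the largest ratio among the members. FANCC (−0.60), FANCG (−0.59) and FANCA (−0.50) fell as well. FANCL, the catalytic subunit, was at 3.88 and 4.54 against 3.97 and 4.89 RPKM (0.06), and FANCB at means of 1.38 ± 0.163 and 1.33 ± 0.260 RPKM (SD, n = 2; −0.05), and the groups overlapped in both.

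FANCI and FANCD2 form the clamp that the core complex ubiquitinates. FANCI, the second most abundant member in the controls, fell from 27.0 and 31.0 to 18.7 and 20.1 RPKM (−0.57). FANCD2 was at 1.95 and 2.09 against 1.24 and 1.48 RPKM (−0.44), just short of the threshold (limma adjusted p = 0.0553), and passed with median-ratio scaling (adjusted p = 0.0157). Their ratio stayed level, with FANCI at 13.8 and 14.8 times FANCD2 in the controls and 15.1 and 13.6 times in the knockdown. BRIP1, the helicase that binds BRCA1, was at 8.04 and 9.87 against 4.61 and 5.08 RPKM (−0.82 ± 0.18 SE, adjusted p = 2.78e-05).

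FANCA and FANCI lost their calls in every fit with 1 library omitted (adjusted p 0.0570 to 0.394), and among these fits FANCC and FANCG passed only in that without control replicate 1. FANCE and BRIP1 failed only without knockdown replicate 1 (adjusted p = 0.109 and 0.0630), FANCF fell below the expression filter without control replicate 2, and FANCA shares 23.6% of its exon bases with ZNF276 on the opposite strand (−0.38, did not pass).

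Nucleotide excision genes went both ways, with 3 that fell and 1 that rose among 10 and a median of −0.01. XPC (ENSG00000154767), which finds distorting lesions across the genome, was at 3.82 and 4.13 RPKM in the control and 1.64 and 1.91 RPKM in the knockdown libraries, 2.24-fold lower (−0.98 ± 0.18 SE, limma adjusted p = 8.69e-07). DDB2, which finds ultraviolet lesions in chromatin, fell from 8.19 and 9.06 to 5.26 and 5.84 RPKM (−0.59). ERCC6 (ENSG00000225830), the Cockayne syndrome B protein that acts where RNA polymerase II has stalled, moved the opposite way, from 2.62 and 3.19 to 5.65 and 6.43 RPKM (0.94 ± 0.18 SE, adjusted p = 1.02e-06). The knockdown means of ERCC6 and XPC were 6.04 ± 0.547 and 1.78 ± 0.189 RPKM (SD, n = 2), against 2.91 ± 0.408 and 3.98 ± 0.218 RPKM in the controls, so their order was turned around. Both calls were kept in all 4 fits that left out 1 library.

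Behind damage recognition, ERCC1, a subunit of a nuclease that cuts the damaged strand beside the lesion, fell from 20.1 and 23.5 RPKM to 11.1 and 13.4 RPKM (−0.81). ERCC4, its catalytic partner, was at 1.80 and 1.85 against 2.13 and 2.24 RPKM (0.21), which did not pass on the deposited scale and passed upward with median-ratio scaling (0.27, adjusted p = 0.0396). ERCC1 thus stood at 11.2 and 12.7 times ERCC4 in the controls and at 5.21 and 5.96 times in the knockdown. The TFIIH helicase genes ERCC2 (−0.05) and ERCC3 (0.04) did not pass on the deposited scale, and ERCC3 passed upward with scaling (0.11). XPA (0.26), DDB1 (0.23), the partner of DDB2, and the nuclease gene ERCC5 (−0.24) did not pass on the deposited scale either. With scaling XPA and DDB1 passed upward and ERCC5 downward.

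DDB2 was at 0.372 and 0.357 times the RPKM of DDB1 in the controls, and lower than that in both knockdown libraries. DDB2 passed only without control replicate 1 among the fits that left out 1 library, and ERCC1 failed without control replicate 2 or knockdown replicate 1 (adjusted p = 0.0544 and 0.133). XPC shares 23.8% of its exon bases with the antisense gene XPC-AS1, which also fell (−0.59), and ERCC1 shares 28.6% with POLR1G on the opposite strand, which fell too (−0.65).

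Both tested mismatch members fell. MSH6, which recognizes base mispairs, was at 20.7 and 24.1 RPKM in the control and 13.5 and 16.2 RPKM in the knockdown libraries (−0.58), and EXO1, the exonuclease that removes the faulty strand, at 9.37 and 11.2 against 6.78 and 7.89 RPKM (−0.46). The groups did not overlap in either gene, which also held for several members that did not pass, and the share over all genes was not counted. Both calls were lost in every fit with 1 library omitted, and both were kept in every such fit with scaled libraries.

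In base excision and the repair of single-strand breaks, 3 of 4 members fell, and the median of −0.82 was the lowest of the pathways. UNG (ENSG00000076248), the glycosylase that removes uracil from DNA, was at 25.2 and 30.5 RPKM in the control and 11.7 and 13.1 RPKM in the knockdown libraries. Its log2 fold change of −1.13 ± 0.17 (SE; limma, adjusted p = 2.1e-09) was the lowest of the 47 members. PARP1, which senses breaks and marks them with poly(ADP-ribose), fell from 15.8 and 18.1 to 9.20 and 9.78 RPKM (−0.80), and XRCC1, the scaffold it recruits, from 4.79 and 5.36 to 2.44 and 2.80 RPKM (−0.84). LIG3, the ligase that XRCC1 carries, was at 1.53 and 1.76 against 1.04 and 1.22 RPKM (−0.40), which did not pass on the deposited scale and passed with median-ratio scaling (adjusted p = 0.0173). UNG and XRCC1 kept their calls in all 4 fits that left out 1 library, and PARP1 failed without knockdown replicate 1 (adjusted p = 0.0753).

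In end joining 2 of 6 members rose, 1 fell and 3 did not pass on the deposited scale. With median-ratio scaling 2 rose and 2 fell. On the deposited scale the call of XRCC4, a member that rose, depended on single libraries. LIG4 (ENSG00000174405), the ligase of classical end joining, was at 2.85 and 3.35 RPKM in the control and 5.72 and 6.55 RPKM in the knockdown libraries (0.88 ± 0.18 SE, limma adjusted p = 5.54e-06). XRCC4 (ENSG00000152422), which holds and stabilizes that ligase, was at 2.43 and 3.07 against 4.52 and 5.21 RPKM (0.73 ± 0.18 SE, adjusted p = 0.000258). Their ratio moved little, with LIG4 at 1.17 and 1.09 times XRCC4 in the controls and 1.26 times in both knockdown libraries. PRKDC (ENSG00000253729), the kinase of the same pathway that is activated on broken ends, was 2.08-fold lower after knockdown, at 10.4 and 11.6 RPKM against a control mean of 22.9 ± 2.67 RPKM (SD, n = 2; −1.02 ± 0.18 SE, adjusted p = 8.99e-08).

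XRCC5, the large Ku subunit on which that kinase assembles, was the most abundant member, at 47.9 and 54.3 RPKM in the control and 43.4 and 48.3 RPKM in the knockdown libraries (−0.15, adjusted p = 0.519), and it passed downward with median-ratio scaling (−0.07, adjusted p = 0.0279). PRKDC stood at 0.439 and 0.456 times XRCC5 in the controls and at 0.240 times in both knockdown libraries. TP53BP1, which shields ends from resection, was level (−0.10), and POLQ, the polymerase of the alternative end-joining route, had a log2 fold change of −0.28. Both passed on neither scale. LIG4 and PRKDC kept their calls in all 4 fits that left out 1 library, and XRCC4 failed without control replicate 1 or knockdown replicate 2 (adjusted p = 0.0634 and 0.0877).

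Of the 3 kinases that signal damage, CHEK1, which halts the cycle when replication stalls, fell from 6.48 and 7.47 RPKM to 4.63 and 4.98 RPKM (−0.49, limma adjusted p = 0.0167). ATR, which activates it, was at 2.33 and 2.82 against 1.87 and 2.18 RPKM (−0.28), and ATM, which responds to breaks, at 2.33 and 2.76 against 1.98 and 2.14 RPKM (−0.25). Neither passed on the deposited scale, and both did so after median-ratio scaling (adjusted p = 0.0405 and 0.0470) but in none of the scaled fits that left out 1 library. The call of CHEK1 was lost in every fit with 1 library omitted (adjusted p 0.0581 to 0.341) and kept in each with scaled libraries.

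**Figure D3:**
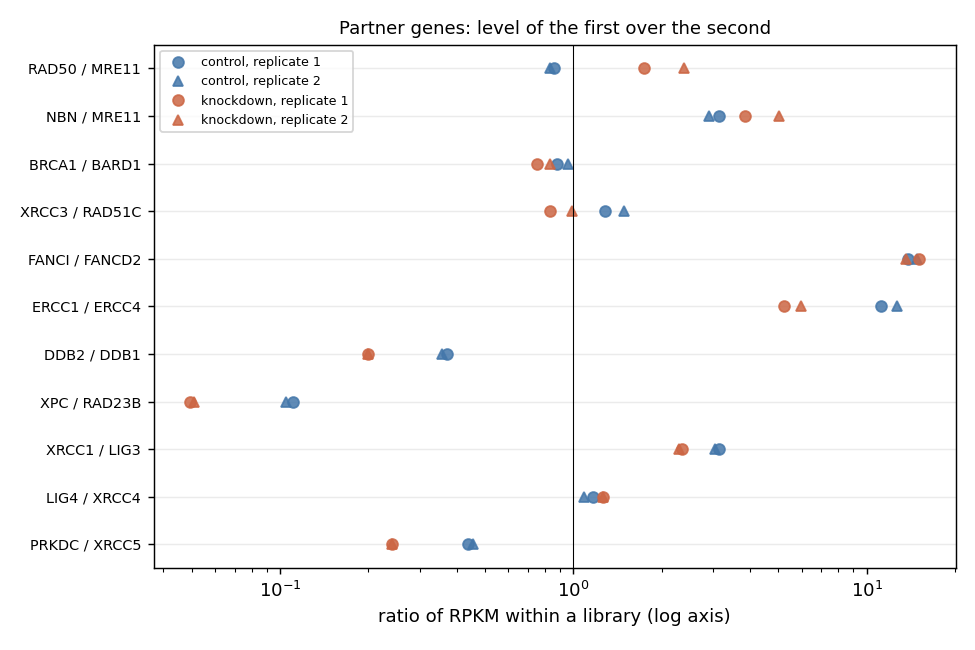
Ratio of RPKM between the genes of 11 partner pairs, computed within each of the 4 libraries (log axis, pairs chosen after the values were seen). RAD50 over MRE11, ERCC1 over ERCC4, XPC over RAD23B and PRKDC over XRCC5 are furthest apart between control and knockdown, and FANCI over FANCD2 overlaps.

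Partner genes thus moved together in some complexes and apart in others. XPC stood at 0.111 and 0.105 times the RPKM of RAD23B, which stabilizes it, in the controls and at 0.0494 and 0.0510 times in the knockdown, where RAD23B itself was at 33.3 and 37.5 RPKM (−0.05). XRCC1 stood at 3.13 and 3.04 times LIG3 in the controls and at 2.35 and 2.30 times in the knockdown. An exact two-sided permutation test of 2 against 2 libraries cannot go below a p of 0.333, and no other test was run on the ratios, which are descriptions.

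The rest of each pathway was read from 124 further repair genes, of which the table held 115 and 107 could be tested. Among them 28 fell (8 to 18 with 1 library left out) and 2 rose, and the median was −0.23. The share that fell was 26.2%, against 21.8% of all tested genes, and with median-ratio scaling 53 fell and 16 rose (49.5% and 15.0%, against 29.9% and 31.1%). In homologous recombination, 8 of 28 fell. RMI2, a subunit of the complex in which BLM works, fell from 8.89 and 9.87 to 2.33 and 3.06 RPKM (−1.64 ± 0.18 SE, limma adjusted p = 9.04e-19), further than any listed member. The recombination genes RAD51D (−0.78) and MND1 (−0.57) also fell. Of 15 further mismatch genes, 5 fell, among them the mismatch recognition gene MSH3 (−1.26), the replication ligase LIG1 (−1.09) and the polymerase delta subunit POLD1 (−1.08).

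Of 19 further base excision genes, 7 fell, and the smallest p were those of the adenine glycosylase MUTYH (−1.10), the glycosylase NEIL3 (−0.67) and TDP1 (−0.57). Of 14 further genes of damage signalling, 4 fell and 1 rose. H2AX, the histone variant phosphorylated around breaks, fell from 69.1 and 83.0 to 30.7 and 35.0 RPKM (−1.19), CLSPN, the adaptor that hands CHEK1 to ATR (−0.80), and TIMELESS (−0.70) fell too, while the mitotic inhibitor WEE1 rose (0.58). In end joining, 3 of 8 fell: PAXX (−0.69), MAD2L2 (−0.51) and the nuclease Artemis, DCLRE1C (−0.50). In the Fanconi pathway 1 of 11 fell, CENPS (−0.53). In nucleotide excision 0 of 12 fell (0 at an unadjusted p below the threshold, and 1 with median-ratio scaling) and 1 rose, the ligase scaffold CUL4B (0.63), while 5 rose with median-ratio scaling. RMI2, MSH3, H2AX, LIG1, POLD1, MUTYH and RAD51D kept their calls in all 4 fits that left out 1 library, and the other genes named in these 2 paragraphs lost theirs in at least 1.

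**Figure D4:**
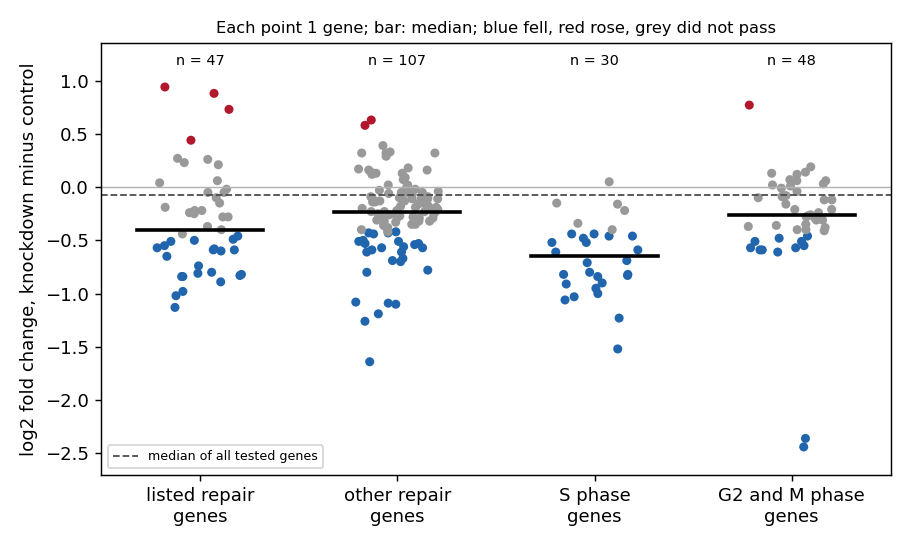
Log2 fold change, knockdown minus control, of the 47 listed repair genes, 107 other repair genes, 30 S phase genes and 48 G2 and M phase genes, with 1 point per gene and a bar at each median. The medians are −0.40, −0.23, −0.65 and −0.27, and the dashed line marks the median of all tested genes at −0.07.

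Genes of S phase fell together with the repair genes. Of 30 tested S phase genes that are not repair genes in these lists, 24 fell and 0 rose (0 at an unadjusted p below the threshold, and 1 with median-ratio scaling), with a median of −0.65. With 1 library left out, 8 to 16 fell. The genes CDCA7 (11.2 ± 1.59 against 3.57 ± 0.315 RPKM, SD, n = 2), E2F8 (−1.23) and UBR7, a ubiquitin ligase gene (−1.03), had the smallest p. Of 48 tested G2 and M phase genes, 12 fell (2 in each fit with 1 library left out) and 1 rose, with a median of −0.27, which is 25.0% that fell against 21.8% of all tested genes. With median-ratio scaling 58.3% of them fell and 16.7% rose, against 29.9% and 31.1% of all genes. The 3 with the smallest p among those that fell were ANP32E (−2.44), LBR (−2.36) and BIRC5 (−0.61), and CENPE rose (0.77). The part of the S phase genes' change in that of the repair genes was not tested, and in bulk RNA fewer cells in S phase and less RNA per cell cannot be told apart.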

How the data were processed

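The authors deposited 1 table of RPKM values for 36525 Ensembl genes and 4 libraries (2 control, 2 knockdown). The aligner was Bowtie 0.12.7 and the build hg19, per the submitters' processing notes. No source used here names the counting program, its strand setting or its read total. No per-sample column was left unused (0 columns), and the table held 0 genes of chromosomes 20, 21 and 22, which were not analysed here. Names came from a current symbol table (32172 genes matched), exon overlaps and lengths from GENCODE 29, and promoters from RefSeq.

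log2(RPKM + 0.5) was fitted on group alone with limma 3.58.1 in R 4.3.3 for genes with a mean of at least 1 RPKM (empirical Bayes with a variance trend, two-sided, Benjamini-Hochberg adjustment over all tested genes, threshold 0.05). This scale understates fold changes of low genes. The variance was drawn so close to the trend over all genes that the SE was 0.17 to 0.20 in every tested member. The SE and p of a gene thus rest little on its own spread. Over all tested genes the median SE was 0.175 on the deposited scale and 0.0543 with median-ratio scaling. Much of the SE on the deposited scale is thus a shift shared by the genes of a library. For UNG, PRKDC, XPC and ERCC6 the adjusted limma p was 0.000333 to 0.00122 with scaling and 0.0555 to 0.0661 with no filter. With no filter the SE of BLM was 0.10 instead of 0.18, and its unadjusted limma p was 0.00235 instead of 3.63e-07. The code was tested on simulated data that held read sampling and the libraries' scale but no other variation between replicates. That test therefore does not tell how often calls on the real libraries are wrong. Fold values are ratios of mean RPKM.

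Alternatives were median-ratio scaling, pseudocounts of 0.1 and 1, no filter and a minimum of 5 RPKM, no variance trend, the replicate number as a block, and leaving out each library. Leaving out a library on scaled values was added after seeing the data. When a library is left out, the lone sample is assumed to vary like the other group. The members and lists were chosen with earlier results of these data known. Values are given for every member, and of the other lists for the target and, by rule, up to 3 genes per pathway, or per list and direction, with the smallest p among those that passed. KLC1, LRRC41, ZNF276, XPC-AS1 and POLR1G were named for their overlap, RAD23B as a partner, VIM, CD44, SPARC, FN1, TGFBI, AXL, KRT8, KRT18, CLDN7, CDH1, GRHL2, CD14 and PTPRC as cell type markers, and WEE1 because it was the 1 gene that rose.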

Additional observations from a re-analysis of the deposited data

How the results depend on the processing

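The 26 members called kept their direction in each alternative that tested them, and the calls of 22 that fell and 4 that rose were kept with median-ratio scaling and with the replicate number as a block. Median-ratio scaling gave 4237 genes higher in all, 9 members and 16 other repair genes higher, 53 other repair genes lower, 1 S phase gene higher, and 8 G2 and M phase genes higher and 28 lower. Without a filter limma called 262 genes higher and 255 lower, 2 G2 and M phase genes lower and 0 genes of the repair and S phase lists. An unadjusted p below the threshold was found for 29 members, with no count over all genes beside it. The smallest adjusted p of any gene in that fit was 0.0445. At a mean of at least 5 RPKM, 1047 genes were higher and 1321 lower, and 14 members were lower and 0 higher, with a median of −0.57. The 4 that rose and 8 of those that fell lie below that minimum and were not tested there. The number of all genes tested is not given for that minimum or for the fits below that leave out 1 library. These counts therefore give no shares, and no median over all genes stands beside the −0.57.

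Gene by gene, same-numbered libraries did not deviate together (correlation 0.0307 over 13627 genes). This correlation leaves out a shift common to all genes, such as the larger RPKM sum of replicate 2 in both groups. It therefore cannot tell whether the numbers pair the samples. With the replicate block, 3109 genes were higher in all and 4318 lower, 6 members were higher and 28 lower (gained were DDB1 and XPA higher and BARD1, NBN, FANCD2, LIG3, XRCC5 and ATR lower), 7 other repair genes were higher and 52 lower, 2 G2 and M phase genes higher and 28 lower.

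Leaving out 1 library gave 693 to 1337 genes higher and 1100 to 1907 lower, 2 to 3 members higher and 7 to 17 lower, 0 to 2 other repair genes higher and 8 to 18 lower, 8 to 16 S phase genes lower, and 0 to 1 G2 and M phase genes higher and 2 lower. The lowest count of members that fell, 7, came when knockdown replicate 1 was left out, and 8 fell when control replicate 2 was. Of the members called, 5 that fell (BLM, XPC, UNG, XRCC1 and PRKDC) and 2 that rose (ERCC6 and LIG4) were called in all 4 such fits. With scaled libraries the same omissions gave 6 to 7 members higher and 19 to 25 lower.

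Signs changed only in 5 members that passed in no fit on the deposited scale. With scaling PALB2 was at 0.05, FANCB at 0.01 and ERCC2 at 0.03. Leaving out 1 library gave −0.16 to 0.11 for PALB2, −0.20 to 0.10 for FANCB, −0.07 to 0.20 for FANCL, −0.16 to 0.06 for ERCC2 and −0.04 to 0.12 for ERCC3. With scaling and 1 library left out, PALB2 was at 0.09, 0.07, 0.03 and −0.01, FANCB at 0.02, 0.10, −0.01 and −0.08, and ERCC2 at 0.01, 0.03, 0.02 and 0.04. The cause was not tested.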
